A study of Homo sapiens with 9 samples.

Results

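The histone variant and high mobility group (HMG) genes of MDA-MB-231 cells were examined after treatment with vehicle, rimonabant or TXX-1-10. They are H2AFZ, H2AFV, H2AFX, H2AFY, H3F3A, H3F3B, HMGB1, HMGB2, HMGA1 and HMGA2, chosen by gene name. All 10 were listed in all 9 libraries, as were 4237 genes of the 27615 in the longest list, and all 10 passed the filter on low values. MDA-MB-231 is a human breast cancer cell line. The vehicle cells were treated with DMSO, the rimonabant cells with rimonabant, which blocks the cannabinoid receptor CB1, and the TXX-1-10 cells with TXX-1-10, a compound derived from rimonabant. Each treatment had 3 libraries and no other agent or allele is named for any of them. Dose and duration for the sequenced cells, and whether replicates came from separate cultures, are not given in the sources used here, so p-values measure only the spread between these libraries.

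DNA in the nucleus is wound around octamers of the core histones H2A, H2B, H3 and H4. Most histone mRNA is made from replication-dependent genes in S phase and ends in a stem-loop without a poly(A) tail. Histone variants replace the core histones at particular sites, and their genes mostly give polyadenylated mRNA, which oligo(dT) selection captures. HMGB proteins bend DNA, and HMGA proteins bind the minor groove of AT-rich DNA through AT-hook motifs.

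Levels are given as FPKM, a count divided by gene length and library total. The length is that of the merged exons of all annotated transcripts, from 1614 bases (H2AFX) to 17730 (H2AFY). Comparisons of FPKM between genes therefore depend on the annotation. The log2 fold changes come from edgeR on the deposited counts, in 1 fit of all 9 libraries. Adjusted p is the quasi-likelihood p-value of that fit with Benjamini-Hochberg adjustment over 4236 genes. A gene is said to have risen or fallen where adjusted p was below 0.05, and to have changed where the log2 difference was also at least 1 in size. Library totals were 17078370 to 17245379 reads for vehicle, 17477838 to 18813662 for rimonabant and 18394759 to 19277808 for TXX-1-10. Rimonabant replicate 1 and TXX-1-10 replicate 3 stood apart from their groups. The chi-square per degree of freedom was 24.3 to 42.2 for replicate pairs with either library and 2.29 to 6.75 for the other pairs. Their deviations from the group mean fell with gene length (Spearman -0.694 and -0.692 across genes, which are not independent replicates). Of the 10 genes, 9 read higher in both libraries than the mean of the group mates, and the excess was largest for H2AFX in both (0.36 and 0.31 on the log2 scale), the shortest gene at 1614 bases. Values without both libraries are therefore given beside the values of each of the 10 genes. The part of gene length in these results was not tested beyond the length correction quoted below. VIM, a mesenchymal marker of this line, was at 224 to 329 FPKM. AXL, CD44 and CAV1, also typical of the line, were at 20.8 FPKM or more in every library but differed between treatments. CAV1 was at 135 to 145 FPKM in vehicle, 47.2 to 49.7 in rimonabant and 20.8 to 22.9 in TXX-1-10. AXL was at 212 to 221 FPKM in vehicle and 124 to 129 in TXX-1-10, where CD44 was also lowest. CDH1, which encodes E-cadherin, was listed at 0 in all 4 lists that reach it, and the epithelial or luminal markers ESR1, GATA3 and EPCAM reached at most 5.37 FPKM.

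TXX-1-10 lowered most of these mRNAs, and HMGA1 moved the other way. Against vehicle, 7 of the 10 genes fell under TXX-1-10, among all genes tested 43.8% fell, and 1 rose, among all genes 30.5%. H3F3B and HMGA2 did not pass the test. The median log2 difference of the 10 genes was -0.75, beside -0.09 for all genes tested. H2AFX alone changed by both thresholds, 1 gene of 10 beside 7.60% of all genes that changed downward. Without TXX-1-10 replicate 3, HMGB1 and HMGB2 also passed both thresholds, which made 3. Under rimonabant 3 of the 10 fell, beside 25.2% of all genes, and 1 rose, beside 23.7%, shares near the background. The median was then -0.05, beside -0.02 for all genes. In these bulk samples fewer cells of a type and less RNA per cell cannot be told apart.

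**Figure D1:**
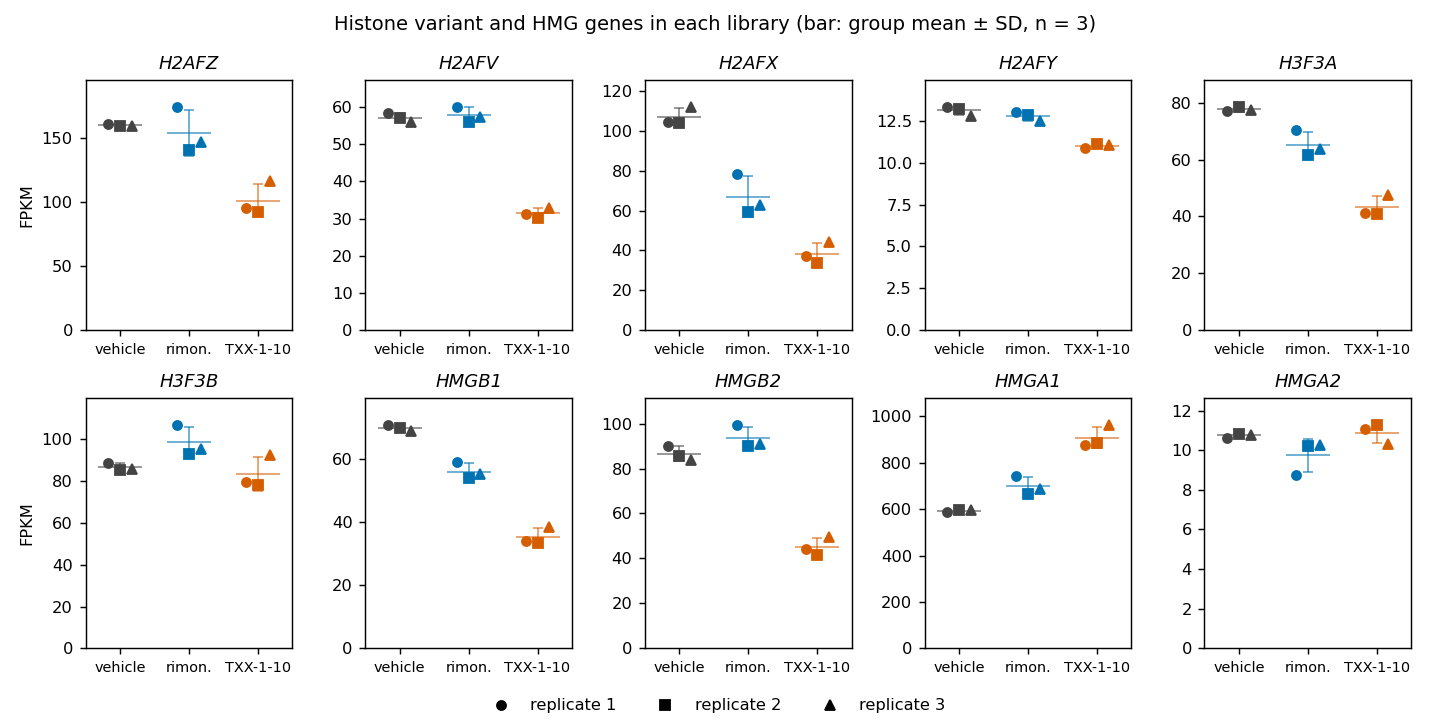
FPKM (y axes, from 0) of the 10 genes in each of the 9 libraries, with replicates shown by marker shape and bars for the group mean and SD of 3 libraries. H2AFX stood at 104 to 112 FPKM in vehicle, 59.5 to 78.6 in rimonabant and 33.8 to 44.0 in TXX-1-10, while HMGA1 rose from 589 to 596 FPKM in vehicle to 875 to 962 in TXX-1-10.

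H2AFX encodes H2A.X, the H2A variant that is phosphorylated around DNA double-strand breaks. The gene (ENSG00000188486) is a single exon at chr11:119093854-119095467 on the minus strand of GRCh38. Its mRNA is known to end either in a stem-loop or in a poly(A) tail, and the deposited counts do not separate these ends. In vehicle it was at 104, 104 and 112 FPKM. In rimonabant it was at 78.6, 59.5 and 62.9 FPKM, and in TXX-1-10 at 37.2, 33.8 and 44.0 FPKM. The 3 treatments did not overlap, vehicle being highest and TXX-1-10 lowest. H2AFX fell under TXX-1-10 (log2 fold change -1.48, SE 0.117, adjusted p = 1.2e-06, and -1.59 without the 2 libraries that stood apart). It also fell under rimonabant (-0.67, SE 0.114, adjusted p = 0.000905, and -0.81 without those libraries). TXX-1-10 was lower than rimonabant by a log2 difference of -0.81 (adjusted p = 0.000173, and -0.79 without those libraries).

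H2AFZ and H2AFV encode the H2A.Z.1 and H2A.Z.2 forms of H2A.Z, the variant that flanks promoters of many genes. H2AFZ (ENSG00000164032, chr4:99948086-99950388, minus strand) was at 160.3, 159 and 159 FPKM in vehicle and at 174, 140.4 and 147 in rimonabant. In TXX-1-10 it was at 94.9, 92.0 and 116 FPKM. All TXX-1-10 libraries lay below all others, while rimonabant spread to both sides of vehicle, its replicate 1 being the high one. H2AFZ fell under TXX-1-10 (log2 fold change -0.66, SE 0.0993, adjusted p = 0.000154, and -0.77 without the 2 libraries). For rimonabant the value was -0.05 (95% confidence interval -0.27 to 0.17, adjusted p = 0.686). Without the 2 libraries H2AFZ passed the test under rimonabant too, at -0.15 (adjusted p = 0.00116).

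H2AFV (ENSG00000105968, chr7:44826791-44848083, minus strand) was at 58.5, 57.1 and 56.1 FPKM in vehicle and at 60.2, 56.1 and 57.5 in rimonabant. The TXX-1-10 libraries were at 31.3, 30.1 and 32.8 FPKM. Vehicle and rimonabant overlapped, and TXX-1-10 lay well below both. H2AFV fell under TXX-1-10 (-0.87, SE 0.0494, adjusted p = 1.11e-07, and -0.90 without the 2 libraries). Against rimonabant the fall was as large (-0.88, adjusted p = 1.93e-07, and -0.89 without the 2 libraries). For rimonabant against vehicle the value was 0.02 (interval -0.09 to 0.13, adjusted p = 0.785, and -0.01 without the 2 libraries).

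H2AFY encodes macroH2A1, an H2A variant with a large C-terminal macro domain, found on the inactive X chromosome and other silent chromatin. The gene (ENSG00000113648, chr5:135333900-135399914, minus strand) was at 13.4, 13.2 and 12.8 FPKM in vehicle and at 13.0, 12.9 and 12.5 in rimonabant. Under TXX-1-10 the values were 10.9, 11.2 and 11.1 FPKM. TXX-1-10 was the lowest group without overlap, but the step was small. H2AFY fell under TXX-1-10 by -0.25 (SE 0.041, adjusted p = 0.000266, and -0.26 without the 2 libraries). This call was lost with a correction for gene length (-0.14, adjusted p = 0.202) and with library sizes set to the counts in the genes of all 9 lists (-0.08, adjusted p = 0.083). Its exons hold 17730 bases, the longest of the 10 genes.

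H3F3A and H3F3B encode the same protein, H3.3, which is put into chromatin outside of DNA replication. H3F3A (ENSG00000163041, chr1:226061851-226072001, plus strand) was at 77.0, 78.7 and 77.5 FPKM in vehicle and at 70.4, 61.8 and 63.6 in rimonabant. In TXX-1-10 it was at 41.1, 40.7 and 47.7 FPKM. The 3 treatments did not overlap and had the same order as for H2AFX. H3F3A fell under TXX-1-10 (-0.85, SE 0.0705, adjusted p = 1.77e-06, and -0.93 without the 2 libraries). It fell less under rimonabant (-0.25, SE 0.0697, adjusted p = 0.0131, and -0.31 without the 2 libraries), and the difference between the compounds was -0.60 (adjusted p = 4.16e-05, and -0.62 without the 2 libraries). The rimonabant call was lost when rimonabant replicate 3 was left out (adjusted p = 0.0513).

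H3F3B (ENSG00000132475, chr17:75776434-75785893, minus strand) was at 88.8, 85.2 and 85.6 FPKM in vehicle and at 106.8, 93.2 and 95.6 in rimonabant. The TXX-1-10 libraries were at 79.4, 78.1 and 92.7 FPKM. Rimonabant was the highest group, and TXX-1-10 spanned the vehicle libraries because of its replicate 3. The TXX-1-10 value was -0.05 (interval -0.22 to 0.12, adjusted p = 0.551). It turned to -0.13 with adjusted p = 0.00164 without the 2 libraries, and to 0.12 with adjusted p = 0.0057 under quantile normalization, so no direction is given. The rimonabant value was 0.19 (interval 0.02 to 0.36, adjusted p = 0.0668), and 0.13 without the 2 libraries (adjusted p = 0.0039). TXX-1-10 was lower than rimonabant (-0.24, adjusted p = 0.019, and -0.26 without the 2 libraries), a call that was lost in 8 of 25 alternatives, among them those without rimonabant replicate 1 (adjusted p = 0.057), TXX-1-10 replicate 1 (0.0737) or TXX-1-10 replicate 2 (0.0717). The rimonabant value passed the test in 10 of 25 alternatives, among them the fit without TXX-1-10 replicate 3 (adjusted p = 0.0171). Exons of H3F3B overlap those of UNK on the other strand. Exons of H3F3A overlap AL512343.2, those of H2AFZ overlap AC097460.1, those of H2AFY overlap C5orf66 and AC026691.1, and those of HMGA2 overlap 2 annotated genes. The counting is not stated to use strand, so reads of overlapping genes cannot be told apart in these stretches.

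Since the genes for H3.3 make 1 protein, their ratio was taken within each library, where scaling cancels. H3F3B over H3F3A was 1.15, 1.08 and 1.10 in vehicle. It was 1.52, 1.51 and 1.502 in rimonabant, and 1.93, 1.92 and 1.94 in TXX-1-10. The ratio rose in steps without overlap and was nearly equal among the replicates of each compound, the 2 libraries that stood apart included. Its mean was 1.11 ± 0.0363 (SD, n = 3) in vehicle, 1.51 ± 0.00784 (SD, n = 3) in rimonabant and 1.93 ± 0.0118 (SD, n = 3) in TXX-1-10. An exact two-sided permutation test gave p = 0.1 for each pair of treatments, the smallest p that 3 against 3 libraries allow.

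HMGB1 and HMGB2 encode abundant chromatin proteins with HMG boxes, and HMGB1 also acts as an alarm signal outside cells. HMGB1 (ENSG00000189403, chr13:30456704-30617597, minus strand) was at 70.9, 69.9 and 68.9 FPKM in vehicle and at 59.1, 54.0 and 55.2 in rimonabant. Under TXX-1-10 the values were 34.1, 33.5 and 38.7 FPKM. The 3 treatments did not overlap, with vehicle highest and TXX-1-10 lowest. HMGB1 fell under TXX-1-10 (-0.98, SE 0.0639, adjusted p = 2.83e-07, and -1.05 without the 2 libraries, where it would count as changed). It fell under rimonabant by -0.32 (SE 0.0632, adjusted p = 0.00238, and -0.36 without the 2 libraries). The compounds differed by -0.66 (adjusted p = 9.34e-06, and -0.69 without the 2 libraries).

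HMGB2 (ENSG00000164104, chr4:173331695-173335125, minus strand), which is most abundant in dividing cells, was at 90.2, 85.4 and 83.9 FPKM in vehicle. It was at 99.3, 89.9 and 91.1 FPKM in rimonabant and at 44.3, 41.5 and 49.6 in TXX-1-10. Rimonabant overlapped vehicle, whereas TXX-1-10 was lower than both by a wide gap. HMGB2 fell under TXX-1-10 (-0.94, SE 0.0706, adjusted p = 8.3e-07, and -1.01 without the 2 libraries). The rimonabant value was 0.11 (interval -0.04 to 0.27, adjusted p = 0.21, and 0.07 without the 2 libraries). It passed the test in 3 of 25 alternatives, quantile normalization (0.18, adjusted p = 0.00559) and the length correction (0.10, adjusted p = 0.0374) among them. HMGB1 over HMGB2 was 0.786 to 0.822 in vehicle, 0.594 to 0.606 in rimonabant and 0.770 to 0.807 in TXX-1-10. The ratio was thus low in rimonabant alone, where HMGB1 fell and HMGB2 did not pass the test, and overlapped between vehicle and TXX-1-10. The exact two-sided permutation p for rimonabant against either group was 0.1, the smallest possible.

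HMGA1 was the most abundant of the 10 mRNAs per length, and HMGA2, a gene of embryonic and tumour cells, the least abundant in vehicle. HMGA1 (ENSG00000137309, chr6:34236873-34246231, plus strand) was at 589, 596 and 595 FPKM in vehicle and at 740.2, 666 and 686 in rimonabant. In TXX-1-10 it was at 875, 887 and 962 FPKM. The 3 treatments did not overlap, in the order opposite to that of H2AFX. HMGA1 rose under TXX-1-10 (0.61, SE 0.0609, adjusted p = 6.93e-06, and 0.57 without the 2 libraries). Quantile normalization moved this value to 1.01 and the difference between the compounds to 0.68. HMGA1 rose less under rimonabant (0.23, SE 0.0608, adjusted p = 0.00989, and 0.19 without the 2 libraries), and the compounds differed by 0.38 (adjusted p = 0.000334, and 0.38 without the 2 libraries).

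HMGA2 (ENSG00000149948, chr12:65824131-65966295, plus strand) was at 10.6, 10.8 and 10.8 FPKM in vehicle and at 8.76, 10.2 and 10.3 in rimonabant. The TXX-1-10 libraries were at 11.1, 11.3 and 10.3 FPKM. The libraries that stood apart were the lowest of their groups here, and TXX-1-10 overlapped vehicle. The TXX-1-10 value was 0.02 (interval -0.13 to 0.16, adjusted p = 0.81, and 0.06 without the 2 libraries). With the length correction it passed the test at 0.13 (adjusted p = 0.0245). The rimonabant value was -0.14 (interval -0.29 to 0.00304, adjusted p = 0.0958, and -0.07 without the 2 libraries). It moved to -0.01 with the length correction and passed with quantile normalization (-0.12, adjusted p = 0.0451). The exons of HMGA2 hold 15403 bases. HMGA1 over HMGA2 was 55.04 to 55.38 in vehicle, 65.3 to 84.5 in rimonabant and 78.6 to 93.3 in TXX-1-10. The upper ends belong to the 2 libraries that stood apart, and the compounds overlapped. Since the exons of HMGA1 hold 2327 bases, length-dependent deviations need not cancel in this ratio.

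**Figure D2:**
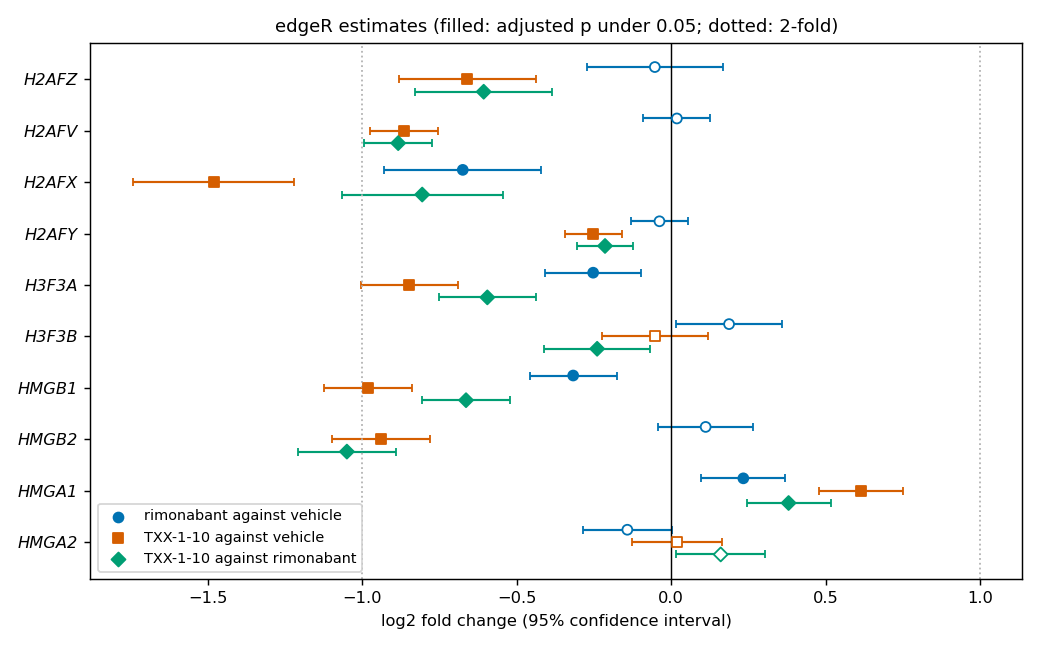
Log2 fold changes (x axis) of the 10 genes for the 3 comparisons, with 95% confidence intervals from edgeR on 9 libraries; filled markers have an adjusted p below 0.05 and dotted lines mark a 2-fold difference. The H2AFX estimate for TXX-1-10 against vehicle lies at -1.48 and the HMGA1 estimate at 0.61, whereas H2AFV and HMGB2 lie near 0 for rimonabant and at -0.87 and -0.94 for TXX-1-10.

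The direct comparison of the compounds asks whether the derivative and its parent differ at this set of genes, at doses that are not stated. TXX-1-10 was lower than rimonabant for 8 of the 10 genes, beside 39.4% of all genes, and higher for 1, HMGA1, beside 25.1%. HMGA2 did not pass (0.16, interval 0.02 to 0.31, adjusted p = 0.0516), but did in 11 of 25 alternatives, among them those without rimonabant replicate 2 (adjusted p = 0.04), rimonabant replicate 3 (0.0426) or TXX-1-10 replicate 3 (0.0227). Without the 2 libraries it passed at 0.13 (adjusted p = 0.0108). The median of the 10 genes was -0.60, beside -0.08 for all genes. Only HMGB2 passed both thresholds, at -1.05 (adjusted p = 7.16e-07, and -1.08 without the 2 libraries), 1 gene of 10 beside 4.34% of all genes. It stood at -0.99 without TXX-1-10 replicate 2 and at -0.96 with TMM scaling. HMGB2 also missed the fold threshold with DESeq2 size factors, the DESeq2 test, quantile normalization and the length correction, with or without the replicate block. The same held with the counts in genes of all 9 lists as library size. Its weakest value over the alternatives was -0.90. The groups did not overlap for 8 of the 10 genes between TXX-1-10 and vehicle, for 6 between rimonabant and vehicle and for 10 between the compounds, beside 78.7%, 61.1% and 63.6% of all genes. The comparisons of each compound with vehicle share the vehicle libraries. Read side by side, H2AFX, H3F3A and HMGB1 fell under both compounds and further under TXX-1-10. H2AFV and HMGB2 fell under TXX-1-10 with rimonabant values of 0.02 and 0.11, and the direct test of the compounds passed for both. H2AFZ and H2AFY also fell under TXX-1-10, with rimonabant values of -0.05 and -0.04. Their direct differences were -0.61 (adjusted p = 0.000385) and -0.21 (adjusted p = 0.0011), and both calls held in all 25 alternatives. The limits given above for these genes apply here too.

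Summed over the 6 histone genes, counts scaled to the library total (CPM) were 1810 to 1839 in vehicle, 1680 to 1922 in rimonabant and 1214 to 1409 in TXX-1-10. Their sum was lowest in TXX-1-10 without overlap. HMGA1 weighs most in the sum of the 4 HMG genes. That sum was 2314 to 2333 in vehicle, 2374 to 2589 in rimonabant and 2593 to 2833 in TXX-1-10. For all 10 genes together vehicle (4125 to 4172), rimonabant (4054 to 4511) and TXX-1-10 (3824 to 4242) overlapped.

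**Figure D3:**
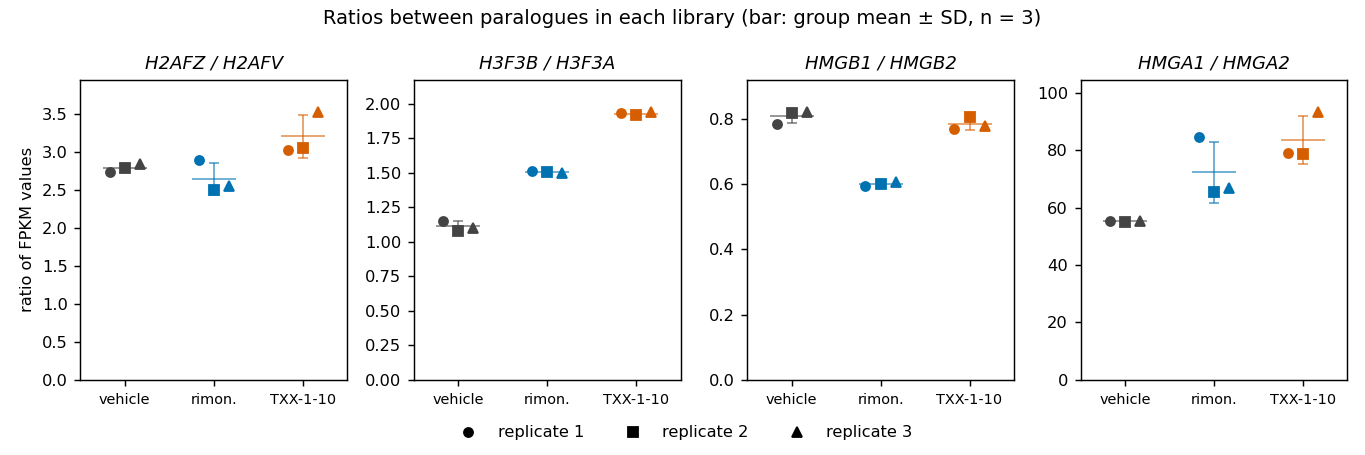
Ratio of FPKM values (y axes, from 0) within 4 pairs of related genes in each library, with bars for the group mean and SD of 3 libraries. H3F3B over H3F3A rises from 1.11 in vehicle to 1.51 in rimonabant and 1.93 in TXX-1-10, and HMGB1 over HMGB2 is lowest in rimonabant at 0.601.

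Promoters of the set were searched for short motifs of growth and cell cycle genes. The search took the 250 bases before each RefSeq start (GRCh38.p14). RefSeq promoters were matched for 8 of the 10 genes. None was matched for HMGA2 or for HMGB2, which fell, so these genes were not searched. CCAAT, the box bound by NF-Y, was searched on both strands and occurs in 32.0% of 35116 promoters, 2 or more times in 9.53%. It occurred 4 times before H2AFX, H2AFV and H3F3B, and 3 times before H2AFZ. The 3 listed starts of HMGB1 had 3, 1 and 0 matches, and the 2 of HMGA1 had 0 and 1. At most 1 match stood before any start of H3F3A, and 0 and 2 before the starts of H2AFY. TTTGAA is a form of the cell cycle homology region and occurs in 13.3% of promoters. H2AFX held 1 match to it, in reverse, as did, in the forward direction, the second listed start of HMGB1. Another form, TTCGAA, occurs in 1.19% of promoters, and H2AFV held 1 match. TATAAA, the TATA box, was found before H2AFX, H2AFZ and H3F3B and is in 10.7% of promoters. For H2AFZ this match and 1 of the CCAAT matches lie in the 113 bases of the window that GENCODE 29 annotates as UTR of an H2AFZ transcript. The E2F site TTTCGCGC occurs in 0.439% of promoters, its variant TTTGGCGC in 0.55%, and the cAMP response element TGACGTCA in 1.65%. None of these 3 motifs was found in the windows of the 8 matched genes. Whether any match acts in these cells was not tested. The promoters are shown for the largest fall (H2AFX) and the H2A.Z gene with a TTCGAA match (H2AFV). Also shown are the H3.3 gene that did not pass (H3F3B) and the gene that rose (HMGA1). Letters run 5′ to 3′ along the gene's strand and stop at the first annotated UTR base, and capitals mark motif matches on either strand.
H2AFX, chr11:119095468-119095715, minus strand: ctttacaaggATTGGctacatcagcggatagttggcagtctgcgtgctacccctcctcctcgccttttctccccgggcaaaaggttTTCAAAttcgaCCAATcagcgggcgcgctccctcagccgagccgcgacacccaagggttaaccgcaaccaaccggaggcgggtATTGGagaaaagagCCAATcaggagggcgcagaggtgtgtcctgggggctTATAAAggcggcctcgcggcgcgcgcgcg
H2AFV, chr7:44848088-44848337, minus strand: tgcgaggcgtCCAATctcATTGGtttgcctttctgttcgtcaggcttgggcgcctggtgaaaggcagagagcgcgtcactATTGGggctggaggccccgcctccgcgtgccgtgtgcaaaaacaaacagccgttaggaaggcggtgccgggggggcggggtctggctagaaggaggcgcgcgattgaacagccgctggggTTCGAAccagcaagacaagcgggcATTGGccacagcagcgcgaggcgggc
H3F3B, chr17:75779781-75780029, minus strand: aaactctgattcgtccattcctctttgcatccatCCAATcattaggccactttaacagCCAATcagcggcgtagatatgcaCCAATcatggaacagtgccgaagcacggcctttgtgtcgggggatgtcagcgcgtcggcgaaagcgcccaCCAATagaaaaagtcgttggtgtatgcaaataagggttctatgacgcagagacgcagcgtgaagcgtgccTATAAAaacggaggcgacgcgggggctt
HMGA1, chr6:34236623-34236872, plus strand: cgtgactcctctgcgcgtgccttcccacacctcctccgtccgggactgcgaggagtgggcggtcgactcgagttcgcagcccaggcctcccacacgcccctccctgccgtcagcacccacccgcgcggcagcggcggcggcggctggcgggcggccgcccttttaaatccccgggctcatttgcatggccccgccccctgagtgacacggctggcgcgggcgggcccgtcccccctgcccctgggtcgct

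HMGB1 and H3F3A have processed pseudogenes that resemble their mRNA and can take some of their reads. In the 4 longest lists, pseudogene counts came to 19.6% to 21.5% of the HMGB1 count and 5.14% to 6.79% of the H3F3A count, and to under 1% for each of the other genes. HMGB1P5 was counted at 1105, 1030 and 966 reads in vehicle, at 856 and 885 in rimonabant replicates 2 and 3, and at 505, 526 and 540 in TXX-1-10. HMGB1P6 was at 838, 867 and 847 reads in vehicle, 691 and 708 in the same rimonabant libraries, and 450, 445 and 483 in TXX-1-10. Both pseudogenes were lowest in TXX-1-10, as HMGB1 was. Their log2 differences under TXX-1-10 were -1.10 and -1.01, close to the -0.98 of HMGB1, from a fit of the 9369 genes listed in the 8 libraries other than rimonabant replicate 1. H3F3AP4 was at 195 and 181 reads in vehicle replicates 1 and 3, at 149 and 174 in rimonabant replicates 2 and 3, and at 103, 113 and 108 in TXX-1-10. Reads of these pseudogenes and their parent genes may be split by the counting and are uncertain.

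The genes around the histone variants were described from lists in the 8-library fit. There 40.6% of all genes fell under TXX-1-10 and 34.7% rose, with 7.39% and 5.28% passing both thresholds, and the median of all genes was -0.04. Under rimonabant 22.8% fell and 23.7% rose. In the comparison of TXX-1-10 with rimonabant 33.9% were lower and 26.7% higher, with 4.31% lower by both thresholds. Genes named below for a small count, outside the naming rule, were chosen after their values were seen. The 8-library fit keeps TXX-1-10 replicate 3, which stood apart, and list values without that library are not given. In TXX-1-10, UBN2 was counted at 1354, 1270 and 872 reads and HMGN2 at 3192, 2844 and 3579, replicate 3 being the last. List sizes and calls under TXX-1-10 thus depend in part on that library.

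Genes of the replication-coupled deposition of H3 and H4 and of the FACT complex fell under TXX-1-10. All 11 tested genes did so, 6 of them by both thresholds, beside 40.6% and 7.39% of all genes. The median was -1.02. CHAF1B, a subunit of chromatin assembly factor 1, fell by 1.80 on the log2 scale (adjusted p = 4.44e-09). TONSL and MMS22L act together at stalled replication forks. TONSL fell by 1.58 and MMS22L fell by 1.47. Of the H3 and H4 chaperones, ASF1B fell by 1.25 and NASP fell by 1.05. Under rimonabant 3 of the 11 fell (TONSL, SSRP1 and SUPT16H), 2 rose and 6 did not pass, with a median of -0.07. The 2 that rose were ASF1B (0.44, adjusted p = 0.000216) and MMS22L (0.26, adjusted p = 0.0115). In the direct comparison all 11 were lower in TXX-1-10, 5 of them by both thresholds (CHAF1B, MMS22L, ASF1B, TONSL and CHAF1A).

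The factors that deposit H3.3 went in both directions. Of 7 tested, 3 rose under TXX-1-10 (UBN2, UBN1 and HIRA), beside 34.7% of all genes, and 2 fell (ASF1A and CABIN1), beside 40.6%. The other 2 (DAXX and ATRX) did not pass, and the median was 0.13. UBN2, a subunit of the HIRA complex, rose by 1.07 (adjusted p = 7.25e-06) and by 0.40 under rimonabant (adjusted p = 0.0391). Under rimonabant 2 of the 7 rose (UBN1 and UBN2) and 1 fell (ASF1A). Between the compounds 1, UBN2, was higher in TXX-1-10 and 0 were lower.

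Among 21 tested genes that deposit or remove H2A.Z, 11 fell under TXX-1-10, beside 40.6% of all genes. A further 4 rose (MBTD1, EPC1, EPC2 and ACTR6), beside 34.7%, and 6 did not pass. The median was -0.23. ANP32E, the chaperone that removes H2A.Z, fell by 1.43 (adjusted p = 1.75e-10) and under rimonabant by 0.73 (adjusted p = 2e-06). RUVBL2, an ATPase of the SRCAP and TIP60 complexes, fell by 1.02 under TXX-1-10 (adjusted p = 3.56e-08) and by 0.55 under rimonabant. Under rimonabant 5 of the 21 fell (ANP32E, RUVBL1, RUVBL2, KAT5 and ACTL6A) and 2 rose (ACTR6 and EPC1). Between the compounds 7 were lower in TXX-1-10 and 2 (MBTD1 and MRGBP) higher.

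Of 14 tested genes for kinases, phosphatases and readers of phosphorylated H2A.X, 7 fell under TXX-1-10, beside 40.6% of all genes. A further 3 rose (RNF168, ATM and PPP4C), beside 34.7%, and 4 did not pass. The median was -0.17. PRKDC, the catalytic subunit of DNA-dependent protein kinase, fell by 1.40 (adjusted p = 1.36e-07) and under rimonabant by 0.60 (adjusted p = 0.00146). Under rimonabant 3 of the 14 fell (PRKDC, ATR and NBN) and 3 rose (RNF168, ATM and MRE11). In the direct comparison 9 were lower in TXX-1-10 and 0 higher.

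**Figure D4:**
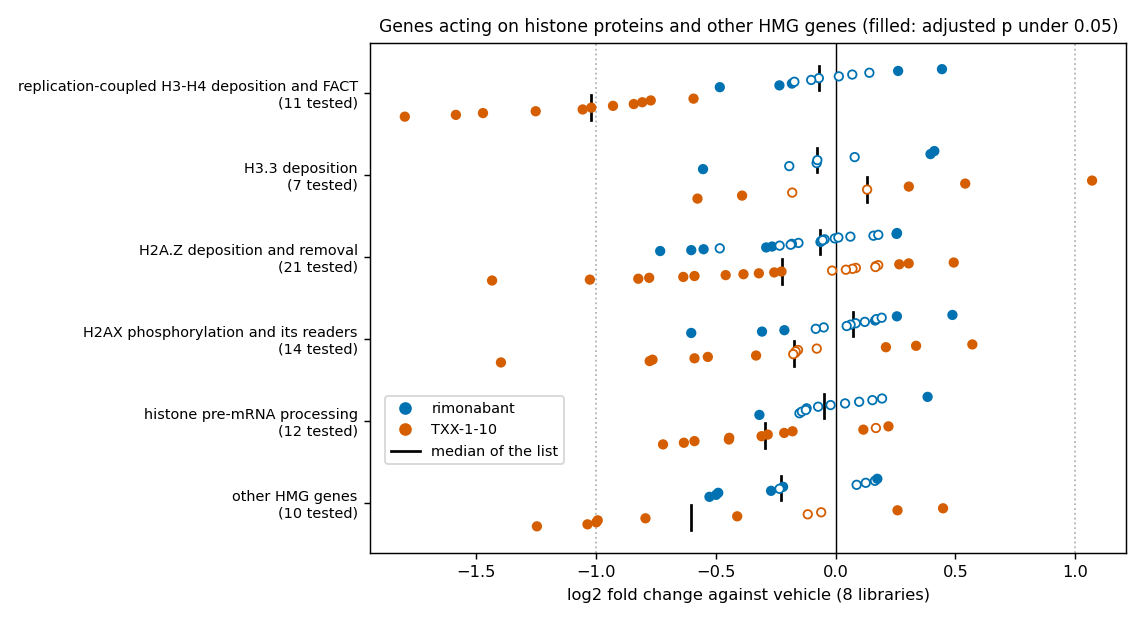
Log2 fold change against vehicle (x axis) of each tested gene in 6 lists, in blue for rimonabant and orange for TXX-1-10, from the 8-library fit; filled points have an adjusted p below 0.05, black bars mark list medians and dotted lines 2-fold differences. All 11 genes of replication-coupled deposition and FACT lie left of 0 for TXX-1-10, with a median of -1.02, against -0.07 for rimonabant.

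The other HMG genes went in both directions under TXX-1-10. Of 10 tested, 6 fell, beside 40.6% of all genes, and 2 rose (HMGXB3 and HMGN4), beside 34.7%. The other 2 did not pass, and the median was -0.60. In the 9-library fit 3 of 6 tested fell and 2 rose, beside 43.8% and 30.5% of all genes. HMGN2, a nucleosome-binding protein, fell by 1.25 (adjusted p = 1.61e-08) and by 0.27 under rimonabant (adjusted p = 0.0192). HMGB3 fell by 1.03 under TXX-1-10 (adjusted p = 3.16e-08) and by 0.49 under rimonabant (adjusted p = 0.000248). Under rimonabant 5 fell (HMGB3, HMGN1, HMGN2, HMGN3 and HMG20B) and 1 (HMGXB3) rose. Between the compounds 6 were lower in TXX-1-10 and 1, HMGXB3, was higher.

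Among other variant and linker histones, 5 of the 9 genes found could be tested. CENPA, the H3 variant of centromeres, fell under TXX-1-10 by 1.53 (adjusted p = 5.63e-09) and under rimonabant by 0.32 (adjusted p = 0.00832). H1F0, a linker histone associated with differentiated cells, also fell under TXX-1-10 (-0.46, adjusted p = 5.65e-06). Under rimonabant its value was -0.66, further down than under TXX-1-10, and the compounds differed by 0.21 (adjusted p = 0.00939). H2AFJ fell under rimonabant (-0.40, adjusted p = 0.00709) and had a value of -0.03 under TXX-1-10. In the direct comparison 2 of the 5 (H1F0 and H2AFJ) were higher in TXX-1-10 and 1, CENPA, was lower.

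Replication-dependent histone genes left few reads in these poly(A)-selected libraries. Of 43 found, 2 could be tested, and neither passed under either compound. The list of other variant and linker histones also holds 1 of the 2, HIST1H2BK. HIST1H2BK was counted at 453, 491 and 426 reads in vehicle and at 478, 424 and 561 in TXX-1-10. HIST1H1C was at 280, 280 and 330 reads in vehicle and at 260, 254 and 319 in TXX-1-10. The groups overlapped for both genes. Of 12 tested genes that process histone pre-mRNA, 9 fell under TXX-1-10, beside 40.6% of all genes. A further 2 rose (LSM11 and SYMPK), beside 34.7%, and 1 (ZNF473) did not pass. The median was -0.30. None passed both thresholds. The 2 furthest from 0 were CASP8AP2 (-0.72, adjusted p = 5.87e-05) and CSTF2 (-0.63, adjusted p = 4.39e-06). Under rimonabant 1 of the 12 rose (NPAT) and 1 fell (ZNF473), and between the compounds 8 were lower in TXX-1-10 and 2 (SYMPK and ZNF473) higher.

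The patterns over the 9 libraries were compared by the Euclidean distance of log2 CPM, each gene centred on its own mean. Among the 10 genes the closest pair was H3F3A and HMGB1 (distance 0.175), followed by H2AFV and HMGB2 (0.235). Over all 4236 genes, the 3 nearest to H2AFX were KPNA2, ACTG1 and ACTB, at 0.288 to 0.294. The nearest to H2AFZ were SLC25A1, NDUFS5 and SUMO2, and to H2AFV SFXN1, RFWD3 and RBBP7. The genes nearest to H2AFY were ZMPSTE24, DNAJB12 and CDK10. H3F3A lay nearest to GAPDH (0.0901), CAVIN1 and ERH, and H3F3B to PDIA3 (0.0483), PSMD4 and PCMT1. The nearest to HMGB1 were IGFBP7 (0.0665), PTMA and FARSB, and to HMGB2 ACAT2 (0.0681), RFC4 and EXOSC9. HMGA1 lay nearest to ABCD4 (0.067), PNMA1 and HSPA9. These distances share the same libraries and their length-dependent deviations and are descriptions without a test.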

How the data were processed

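RNA from MDA-MB-231 cells was sequenced after oligo(dT) selection with NEBNext Ultra libraries, 3 libraries per treatment. HISAT2 2.0.5 and featureCounts 1.5.0-p3 are named in the submitters' processing notes. The authors deposited whole-number counts per gene without normalization and, beside them, FPKM values computed from uniquely mapped exonic reads. Each deposited list ends in an incomplete line, so weakly expressed genes are missing from the fits, and a missing line was not read as 0. The list of rimonabant replicate 1 stops after 4237 genes, so the 9-library fit also lacks better expressed genes. Among them are CENPA (725, 679 and 668 reads in vehicle) and HMGB1P6 (mean of 76.6 FPKM in vehicle). Shares of all genes in that fit describe only the genes it holds. Coordinates are those of GENCODE 29. Count, FPKM and length together give the read total that each FPKM column was divided by. This total was 0.976 to 1.093 times the listed counts in the 4 longest lists, lowest in vehicle, and which reads it holds is not given in the sources used here. It served as library size.

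Genes listed in all 9 libraries and averaging 1 FPKM or more were fitted with edgeR 4.0.16 in R 4.3.3 (estimateDisp, glmQLFit, glmQLFTest), without a replicate block. The test was checked on simulated data for TXX-1-10 against vehicle over 4236 genes. All 100 genes changed 1.5-fold and all 100 changed 3-fold were recovered, with 7 false calls. The simulated counts had the same relative spread for every gene, without libraries that stood apart or a length trend. The check therefore does not cover those features of the data. Alternatives were TMM and DESeq2 1.42.0 scaling, DESeq2's test, limma 3.58.1 (pseudocounts of 1 and 0.1 FPKM, or quantile normalization), other filters, libraries left out, a replicate block and a gene length correction. All 10 genes are named. From each list, changed genes were named, at most 5 with the largest size under TXX-1-10, or the 2 furthest from 0 where none changed. The genes and lists were chosen with earlier results of these data known. The genes nearest in pattern to HMGA2 are not reported here.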

Additional observations from a re-analysis of the deposited data

How the results depend on the processing

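Over 25 alternatives, 691 of 750 single-gene values kept their direction and their side of the threshold, 12 lost the call, 29 gained one and 18 turned sign. Many of these values could hardly move. Another filter, or leaving out a library of a group not compared, leaves the estimate nearly as it was. H2AFZ under TXX-1-10 stayed at -0.66 without any 1 rimonabant library. The tally is therefore not a measure of robustness. Quantile normalization raised the number of genes passing under rimonabant from 4 to 7. H3F3B under TXX-1-10 turned to 0.0453 with TMM, 0.0469 with DESeq2 size factors and 0.0469 with the DESeq2 test, to 0.117 with quantile normalization, to 0.0219 with the length correction and to 0.0205 with that correction and the replicate block. H2AFZ under rimonabant turned to 0.0294 with quantile normalization and ran from -0.15 to 0.00886 with 1 library left out. H2AFV under rimonabant was -0.0101 in the 8-library fit and -0.0101 without both libraries that stood apart, and ran from -0.0101 to 0.041 with 1 library left out. H2AFY under rimonabant turned to 0.124 with the length correction and to 0.12 with that correction and the replicate block. HMGA2 under TXX-1-10 ran from -0.00784 to 0.0558 with 1 library left out. The cause of these turns was not tested. Replicate numbers did not pair the libraries by the rule of a correlation above 0.1 in every pair (TXX-1-10 and vehicle -0.0625, 0.0137 and -0.0741, rimonabant and vehicle -0.0537, 0.0435 and 0.0427, TXX-1-10 and rimonabant -0.789, 0.828 and -0.614), and with the replicate block 8, 4 and 9 genes passed, as without it.

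A pair of scalings was chosen after seeing the data. With totals less mitochondrially encoded counts HMGA2 under TXX-1-10 turned to -0.0299. With the counts in the genes of all 9 lists as library size, H3F3B under TXX-1-10 turned to 0.118, H2AFZ under rimonabant to 0.0165 and H2AFY under rimonabant to 0.0337. Under TXX-1-10 the split of all genes was 1294 higher and 1857 lower, 1568 and 1570 with TMM, and 1784 and 1344 with that library size, and the median of all genes moved from -0.09 to 0.004 and 0.08. With that library size 7, 6 and 9 of the 10 genes passed in the 3 comparisons. Truncated lists and 3 libraries per group limit what can be seen of genes with few reads.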

Other observations

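A pair of replication-dependent H2A and H2B genes, chosen after their values were seen, had more reads in TXX-1-10, unlike other genes of their list. HIST1H2AC was counted at 100 and 123 reads in vehicle replicates 1 and 3, at 119 and 138 in rimonabant replicates 2 and 3, and at 199, 193 and 224 in TXX-1-10. HIST1H2BD was at 84 and 83 reads in the same vehicle libraries, at 117 and 107 in the same rimonabant libraries, and at 146, 180 and 206 in TXX-1-10. Both were highest in TXX-1-10 without overlap, but 7 of the 9 lists reach them and they were not tested. HIST1H2AG went the other way, at 35 and 31 reads in vehicle replicates 1 and 3 and 13 and 17 in TXX-1-10 replicates 2 and 3. HIST1H4I overlapped, at 196 and 215 reads in those vehicle libraries and 219, 203 and 229 in TXX-1-10. These reads are not scaled to the library totals, which were higher in TXX-1-10.

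GAPDH and ACTB, widely used reference genes, were among the genes nearest in pattern to H3F3A and H2AFX. Under TXX-1-10 their log2 differences were -0.86 and -1.57.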
